A study of Mus musculus with 12 samples.

Results

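Axon guidance genes encode the secreted and membrane-bound cues that steer growing axons and migrating cells, and the receptors that read them. Semaphorins signal through plexins, and the secreted class 3 semaphorins mostly bind neuropilins as co-receptors. Ephrins are membrane-bound ligands of the Eph receptor tyrosine kinases, the A class held by a lipid anchor and the B class spanning the membrane, while Slit proteins bind Robo receptors and netrins bind Dcc and the Unc5 family. Many developmental genes, guidance genes among them, are bound and held low in mouse embryonic stem (ES) cells by Polycomb proteins, which act as 2 complexes: Ring1B, encoded by Rnf2, is a core subunit of the first and ubiquitylates histone H2A, and Eed is an essential part of the second, which methylates histone H3 at lysine 27.

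The genes described here were chosen by family: 42 named members of the neuropilin, plexin, semaphorin (classes 3 and 6), Eph, ephrin, Robo, Slit, Unc5, netrin and Dcc families, of 18193 genes that had a probe set assigned to 1 symbol on the array. A probe set for 1 symbol was found for 41 of them (106 probe sets). None was annotated to Ephb2. In all, 35 members were tested among 13984 genes, and the other 6 (Epha3, Epha5, Epha7, Robo2, Sema3d and Slit3) had no probe set that passed the filter on low signals, with highest signals of 7.69, 13.4, 20.8, 10.3, 18.7 and 23.9 on any of the 12 arrays.

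Total RNA of undifferentiated mouse ES cells was hybridised to Affymetrix mouse arrays, with 3 biological replicates for each of 4 genotypes. The genotypes were wild type cells, Ring1B deficient cells and Eed deficient cells, each mutant made by gene targeting, and Ring1B/Eed double deficient cells made by targeting Ring1B in the Eed deficient cells. The labels name no second line of any genotype, so line and genotype cannot be told apart, and the tests below rest on the spread between these 12 arrays. The 4 genotypes shared no added treatment in the labels, and undifferentiated state was judged by the submitters from colony morphology.

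The signals were the MAS5 values deposited by the authors, a linear brightness in arbitrary units scaled to the same trimmed mean on every array, with medians of 19.1 to 28.0. Replicates correlated across genes at 0.963 to 0.984. Eed signal was 1428 ± 159 (SD, n = 3) in wild type, against 37.8 ± 13.1 and 71.2 ± 21.0 in the Eed deficient and double deficient cells. The brightest Rnf2 probe set stood at 851 ± 124 with both genes intact, 468 ± 65.7 without Ring1B, 779 ± 168 without Eed and 383 ± 18.8 without either. The next brightest went from 632 ± 74.6 in wild type to 330 ± 23.1 in Ring1B deficient cells. A dim Rnf2 probe set went the other way, from 29.9 ± 7.02 to 60.2 ± 8.27. The remaining ones had wild type means of 13.8 and 2.06. Which part of Rnf2 was deleted is not given in the sources used here. All 10 ES cell markers were tested, and none was called in Ring1B deficient cells (limma, none at an unadjusted p under 0.05 either). In Eed deficient cells 1 was lower (4.56% of all genes), and in double deficient cells 8 were lower (11.4% of all genes). The summed signal of 12 primitive and visceral endoderm markers was 878 to 1194 in wild type, 4522 to 6198 in Ring1B deficient, 6735 to 9716 in Eed deficient and 9422 to 11283 in double deficient arrays. Called higher in the mutants, in that order, were 11, 12 and 12 of the markers (4.68%, 10.8% and 19.5% of all genes). The summed signal of 11 fibroblast and feeder cell markers was 681 to 892 in wild type and 582 to 878 in Ring1B deficient arrays, 1169.9, 1165 and 3426 in Eed deficient replicates 1, 2 and 3, and 3219.6 to 3551 in double deficient arrays. Called higher were 1, 3 and 9 of these, beside the same shares of all genes. No marker of either list was at 0, though Ttr (0.538 ± 0.113) and Afp (2.25 ± 0.266) were near it in wild type (SD, n = 3). In such bulk RNA, fewer cells of a type and less RNA per cell cannot be told apart.

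A member was called when its log2 change passed an adjusted p of 0.05 (limma moderated test over all 12 arrays, Benjamini-Hochberg over 13984 genes), where a log2 change is the difference of mean log2(signal + 5) between genotypes and understates the change of dim genes. The replicate number was left out of this test. With it as a block, all 59 calls held and 21 were gained. By the rule without it, 22 members (62.9%, against 38.3% of all genes) were called in at least 1 of 7 comparisons and 13 in none. The largest set of calls lay in the double deficient cells: 16 of 35 members rose and 1 (Sema3e) fell against wild type, where 19.5% of all genes were called higher and 11.4% lower. Among the 16 were Sema6a and Plxnc1, which had no wild type or Ring1B deficient array above its 40th percentile and so passed the filter only through arrays of the Eed and double deficient cells, where they were high. Of the other 33 members, 14 rose. Sema3a and Sema6d, among these 14, had 1 wild type and 1 Ring1B deficient array above its 40th percentile. They too passed only with arrays of the Eed and double deficient cells, as the filter needed 3. In Eed deficient cells 6 members rose and 1 fell (10.8% and 4.56% of all genes), and in Ring1B deficient cells 3 rose and 5 fell (4.68% and 2.5% of all genes). The median log2 change of the 35 members was 0.71 in the double deficient, 0.30 in the Eed deficient and 0.0049 in the Ring1B deficient cells, beside 0.10, 0.034 and -0.014 over all genes tested.

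Those 3 comparisons share the wild type arrays. Epha1 and Ephb3 were higher in all 3 mutants (5.71% of members, 3.47% of all genes) and Sema3e was lower in all 3 (2.86% of members, 1.04% of all genes). In double deficient cells alone of the 3, 9 members (25.7%, against 16.6% of all genes) were called. Among these 9, Plxnc1, Sema6a, Sema3a and Sema6d passed the filter only with Eed deficient or double deficient arrays. Their selection was not independent of their rise, which bears on this share and on the next counts for double deficient cells. The mean signal was highest in double deficient cells for 26 of 35 members, against 40.9% of all genes. It was lowest in wild type for 15 members and lowest in Ring1B deficient cells for another 15 (32.6% and 25.9% of all genes). The arrays of the compared genotypes did not overlap for any called member, and did not overlap in 20 of 35 members between double deficient and wild type cells (45.8% of all genes), 12 of 35 for Eed deficient (30.4%) and 9 of 35 for Ring1B deficient cells (22.7%).

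**Figure D1:**
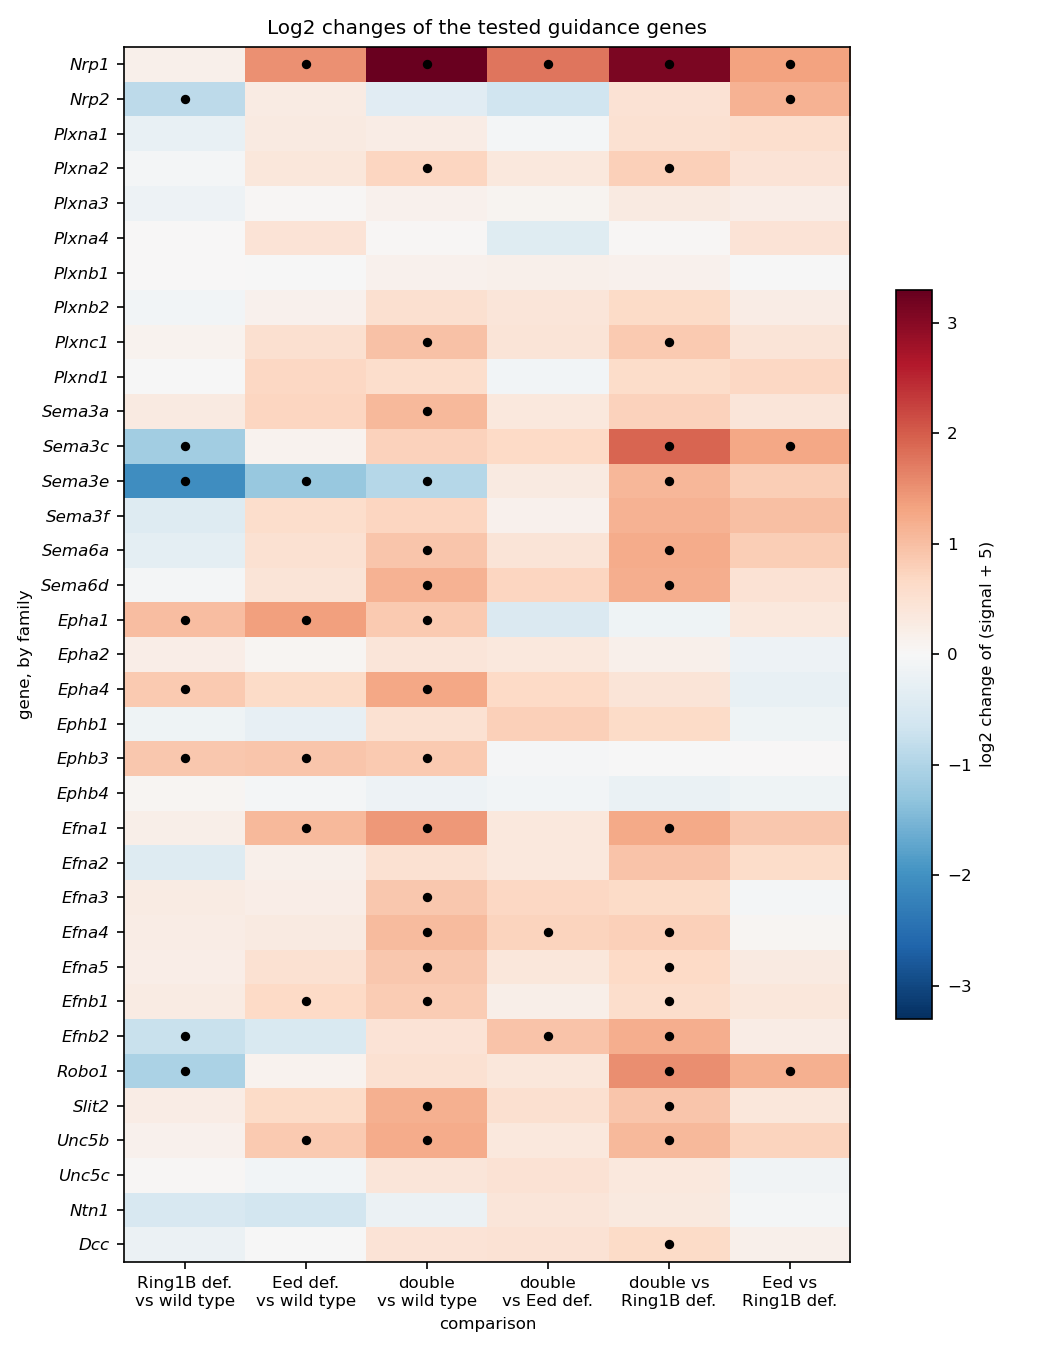
Log2 change of (signal + 5) for the 35 tested guidance genes (rows, grouped by family) in 6 comparisons (columns), red for higher and blue for lower in the first-named genotype. Black dots mark calls at an adjusted p under 0.05 (limma), and the strongest colour, for Nrp1 in double deficient against wild type cells, stands for a log2 change of 3.27.

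The scaling of the arrays bears on these counts. After median centring, 13 members were higher and 2 lower in double deficient cells, and after quantile normalization 12 and 1. Over all genes, the 2723 higher and 1589 lower calls of this comparison became 2206 and 1808 after quantile normalization and 1691 and 3141 after median centring, and the all-gene median moved from 0.10 to 0.00037 and -0.15. The members' median stayed above the all-gene median each time, at 0.45 and 0.46, with 28 and 30 of 35 members above it (30 of 35 with the deposited scaling). For Eed deficient cells the all-gene calls were 1509 and 637 as deposited, 1349 and 663 after quantile normalization and 1150 and 795 after median centring, with 5 members higher and 1 lower under both. The count of members lower in double deficient cells was 0 without any 1 of wild type replicates 1 and 2 or of the 3 double deficient replicates.

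Among the semaphorins, the ligands, 6 of 7 members were tested. In double deficient cells 3 rose and 1 fell (19.5% and 11.4% of all genes). The 3 that rose all needed Eed deficient or double deficient arrays to pass the filter. In Ring1B deficient cells 2 fell (2.5% of all genes) and in Eed deficient cells 1 fell (4.56%). Sema3e, a class 3 semaphorin that signals through Plxnd1 and guides vessels as well as axons, fell in every mutant. Its signal was 158, 165 and 80.3 in the wild type arrays, 45.6, 16.8 and 25.7 in the Ring1B deficient, 48.5, 56.1 and 49.9 in the Eed deficient and 67.4, 63.3 and 61.7 in the double deficient ones. Every mutant array lay below every wild type array, and every Ring1B deficient array lay below every other array. The log2 change was -2.04 (SE 0.29, adjusted p = 0.000757) in Ring1B deficient, -1.24 (SE 0.29, adjusted p = 0.0114) in Eed deficient and -0.95 (SE 0.29, adjusted p = 0.0251) in double deficient cells, and the double deficient cells were higher than the Ring1B deficient cells by 1.10 (SE 0.29, adjusted p = 0.0201). Its other 3 kept probe sets all fell in Ring1B deficient cells, by 1.78, 2.63 and 1.37 on the log2 scale.

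Sema3c, which acts through neuropilins in cardiac and neural crest development, was low in Ring1B deficient cells. Its signal was 24.3, 32.4 and 15.3 in the wild type arrays, 13.3, 5.30 and 5.54 in the Ring1B deficient, 30.8, 18.01 and 29.2 in the Eed deficient and 44.9, 31.5 and 54.9 in the double deficient ones. The Ring1B deficient arrays lay below all the others, and the double deficient and wild type arrays overlapped. It fell in Ring1B deficient cells (-1.16, SE 0.31, adjusted p = 0.0352), a call lost in 10 of 21 alternatives, and was higher than in Ring1B deficient cells in both Eed deficient (1.27, SE 0.31, adjusted p = 0.0324) and double deficient cells (1.92, SE 0.31, adjusted p = 0.00117). Against wild type, its log2 change in double deficient cells was 0.77 (SE 0.31, adjusted p = 0.0728), not called.

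Sema3a, the collapsing factor of growth cones, and the membrane-bound Sema6a and Sema6d rose in double deficient cells from signals near the lower end of the arrays. Sema3a had signals of 12.5, 2.44 and 10.4 in the wild type arrays, 6.45, 13.6 and 12.9 in the Ring1B deficient, 11.01, 13.7 and 24.7 in the Eed deficient and 23.0, 17.7 and 24.0 in the double deficient ones (log2 change 1.07, SE 0.35, adjusted p = 0.0320). For Sema6a they were 10.8, 9.77 and 4.01 in the wild type arrays, 5.29, 1.71 and 10.8 in the Ring1B deficient, 10.5, 13.6 and 15.3 in the Eed deficient and 17.5, 18.03 and 21.6 in the double deficient ones (log2 change 0.90, SE 0.32, adjusted p = 0.0492). For both genes the double deficient arrays lay above all wild type arrays, and neither was called after quantile normalization (0.78 with adjusted p = 0.112, and 0.63 with adjusted p = 0.166). Sema3a needed Eed deficient or double deficient arrays to pass the filter, so its selection was not independent of its rise. Sema6a passed only through such arrays, so the same holds for it, and it lost its call in 14 of 21 alternatives. With no filter its change was the same 0.90 (adjusted p = 0.048).

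Sema6d signals were 13.1, 9.66 and 8.98 in the wild type arrays, 8.51, 12.5 and 8.98 in the Ring1B deficient, 16.7, 10.7 and 21.4 in the Eed deficient and 29.9, 22.9 and 36.5 in the double deficient ones (log2 change 1.15, SE 0.25, adjusted p = 0.00409). All double deficient arrays lay above the arrays of the other genotypes. Like Sema3a, Sema6d needed Eed deficient or double deficient arrays to pass the filter, so its selection was not independent of its rise. A second Sema6d probe set went the other way, by -0.72 (adjusted p = 0.138 in a fit over 25249 probe sets), and it was the brightest, and therefore the tested one, without double deficient replicate 1, giving -0.59 in place of 1.15. The uncalled Sema3f ranged from 11.04 to 79.3.

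Neuropilin 1 carried the largest change of the members. Nrp1 is a co-receptor for class 3 semaphorins and for vascular endothelial growth factor, and lies on chromosome 8 (RefSeq GRCm38.p6, 128358591 to 128505476). Its signal was 54.0, 26.9 and 52.8 in the wild type arrays, 76.8, 34.1 and 42.4 in the Ring1B deficient, 112, 93.9 and 208 in the Eed deficient and 419, 388 and 584 in the double deficient ones. Wild type and Ring1B deficient arrays overlapped, the Eed deficient arrays lay above them, and the double deficient arrays lay above all others.

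The log2 change of Nrp1 was 3.27 (SE 0.33, adjusted p = 1.11e-05) in double deficient cells, which is 9.67-fold on the scale with 5 added. It was 1.499 (SE 0.33, adjusted p = 0.00837) in Eed deficient and 0.16 (SE 0.33, adjusted p = 0.849) in Ring1B deficient cells, the latter not called. Double deficient exceeded Eed deficient cells by 1.77 (SE 0.33, adjusted p = 0.0185). The other 3 kept Nrp1 probe sets were also called higher in double deficient cells, by 3.26, 2.74 and 1.28. Eed deficient replicate 3, the array with a fibroblast marker sum of 3426, had the highest Nrp1 signal of its genotype, and without it Nrp1 still rose in Eed deficient cells (1.17, adjusted p = 0.0432). The part of fibroblast or endoderm cells in the Nrp1 signal was not tested.

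**Figure D2:**
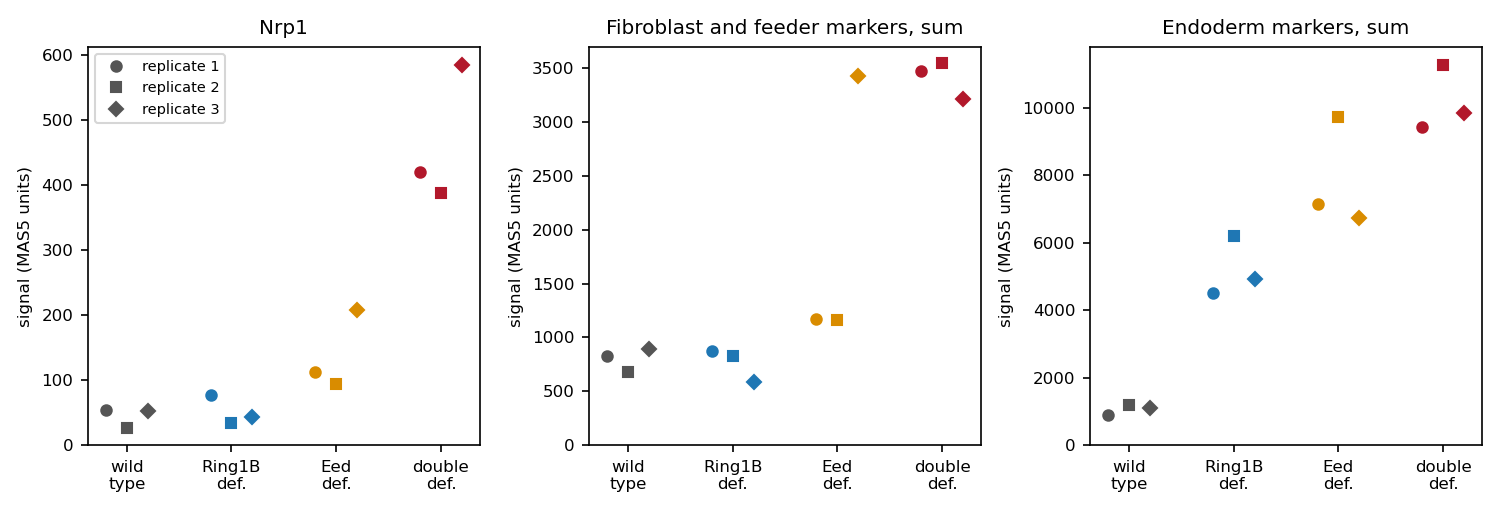
Signal of Nrp1 (left), summed signal of 11 fibroblast and feeder markers (middle) and summed signal of 12 endoderm markers (right) on each of the 12 arrays, in MAS5 units, with 1 point per array and a shape per replicate number. Nrp1 and the fibroblast sum were highest in the 3 double deficient arrays apart from Eed deficient replicate 3, whose fibroblast sum of 3426 lay among them while its Nrp1 signal of 208 lay below them.

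Nrp2 is the second neuropilin. Its signal was 105, 126 and 199 in the wild type arrays, 75.2, 65.1 and 83.1 in the Ring1B deficient, 210.1, 159.7 and 144 in the Eed deficient and 103, 84.1 and 134 in the double deficient ones. The Ring1B deficient arrays lay below all others, a fall of 0.86 on the log2 scale (SE 0.23, adjusted p = 0.0409) that was not called in 11 of 21 alternatives. Against wild type the change was -0.38 (SE 0.23, adjusted p = 0.237) in double deficient cells, not called, and there the 4 kept Nrp2 probe sets disagreed: another gave 0.65 (adjusted p = 0.0465 over 25249 probe sets).

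Plexins are the receptors of semaphorins. All 8 were tested, and none was called in Ring1B or Eed deficient cells (limma, none and 1, respectively, at an unadjusted p under 0.05). In double deficient cells 2 rose (19.5% of all genes). Plxna2 rose from 16.8 ± 6.42 to 30.3 ± 5.37 (SD, n = 3; log2 change 0.72, SE 0.24, adjusted p = 0.0348) and Plxnc1, the receptor of Sema7a, from 6.75 ± 0.992 to 17.9 ± 1.75 (0.96, SE 0.26, adjusted p = 0.0131). Plxna2 lost its call after quantile normalization (0.48, adjusted p = 0.111) and median centring (0.47, adjusted p = 0.116), and Plxnc1 after quantile normalization (0.68, adjusted p = 0.0590). The wild type and Ring1B deficient signals of Plxnc1 all lay below the 40th percentile of their arrays, so it was tested only because it was high in the other genotypes. With no filter another of its probe sets was the brightest, and gave 0.41 (adjusted p = 0.228), not called. Plxna1, Plxna3, Plxna4, Plxnb1, Plxnb2 and Plxnd1, the receptor of Sema3e, were called in none of the 7 comparisons.

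Of the Eph receptors, 10 were listed and 6 tested. The 3 that were called rose in Ring1B deficient cells as well as in double deficient cells (4.68% and 19.5% of all genes). Epha1 signals were 22.9, 26.5 and 15.4 in the wild type arrays, 46.1, 59.9 and 38.9 in the Ring1B deficient, 55.2, 77.6 and 54.2 in the Eed deficient and 43.3, 44.0 and 40.9 in the double deficient ones. Every mutant array lay above every wild type array, and the double deficient arrays lay below the Eed deficient ones. The log2 change was 1.01 (SE 0.21, adjusted p = 0.0110) in Ring1B deficient, 1.35 (SE 0.21, adjusted p = 0.000877) in Eed deficient and 0.87 (SE 0.21, adjusted p = 0.00741) in double deficient cells. The call in Ring1B deficient cells was lost in 2 of 21 alternatives, among them the mean over probe sets. The other kept Epha1 probe set had the same sign in each mutant but was called in none.

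Epha4, a receptor with a broad range of ephrin ligands of both classes, had signals of 132, 111 and 108 in the wild type arrays, 262, 167 and 230.1 in the Ring1B deficient, 231, 140.1 and 189 in the Eed deficient and 321, 239 and 322 in the double deficient ones. Each mutant's arrays lay above those of wild type. It rose in Ring1B deficient (0.86, SE 0.21, adjusted p = 0.0236) and double deficient cells (1.28, SE 0.21, adjusted p = 0.000504), and changed by 0.63 (SE 0.21, adjusted p = 0.0585) in Eed deficient cells, not called. With the replicate number as a block that change was called (limma, adjusted p = 0.00235). The Ring1B call was lost in 5 of 21 alternatives, among them the mean over probe sets. Of the 3 other kept Epha4 probe sets, 1 was called in Ring1B deficient cells. Ephb3 went from 52.1 ± 2.62 in wild type to 101.1 ± 11.1, 102 ± 9.74 and 100.4 ± 21.1 in Ring1B, Eed and double deficient cells (SD, n = 3). These rises were 0.89 (SE 0.17, adjusted p = 0.00587), 0.90 (SE 0.17, adjusted p = 0.00269) and 0.86 (SE 0.17, adjusted p = 0.00170), and double deficient cells differed from neither single mutant beyond the spread (-0.02 and -0.04, SE 0.17). Epha2, Ephb1 and Ephb4 were not called in any comparison.

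**Figure D3:**
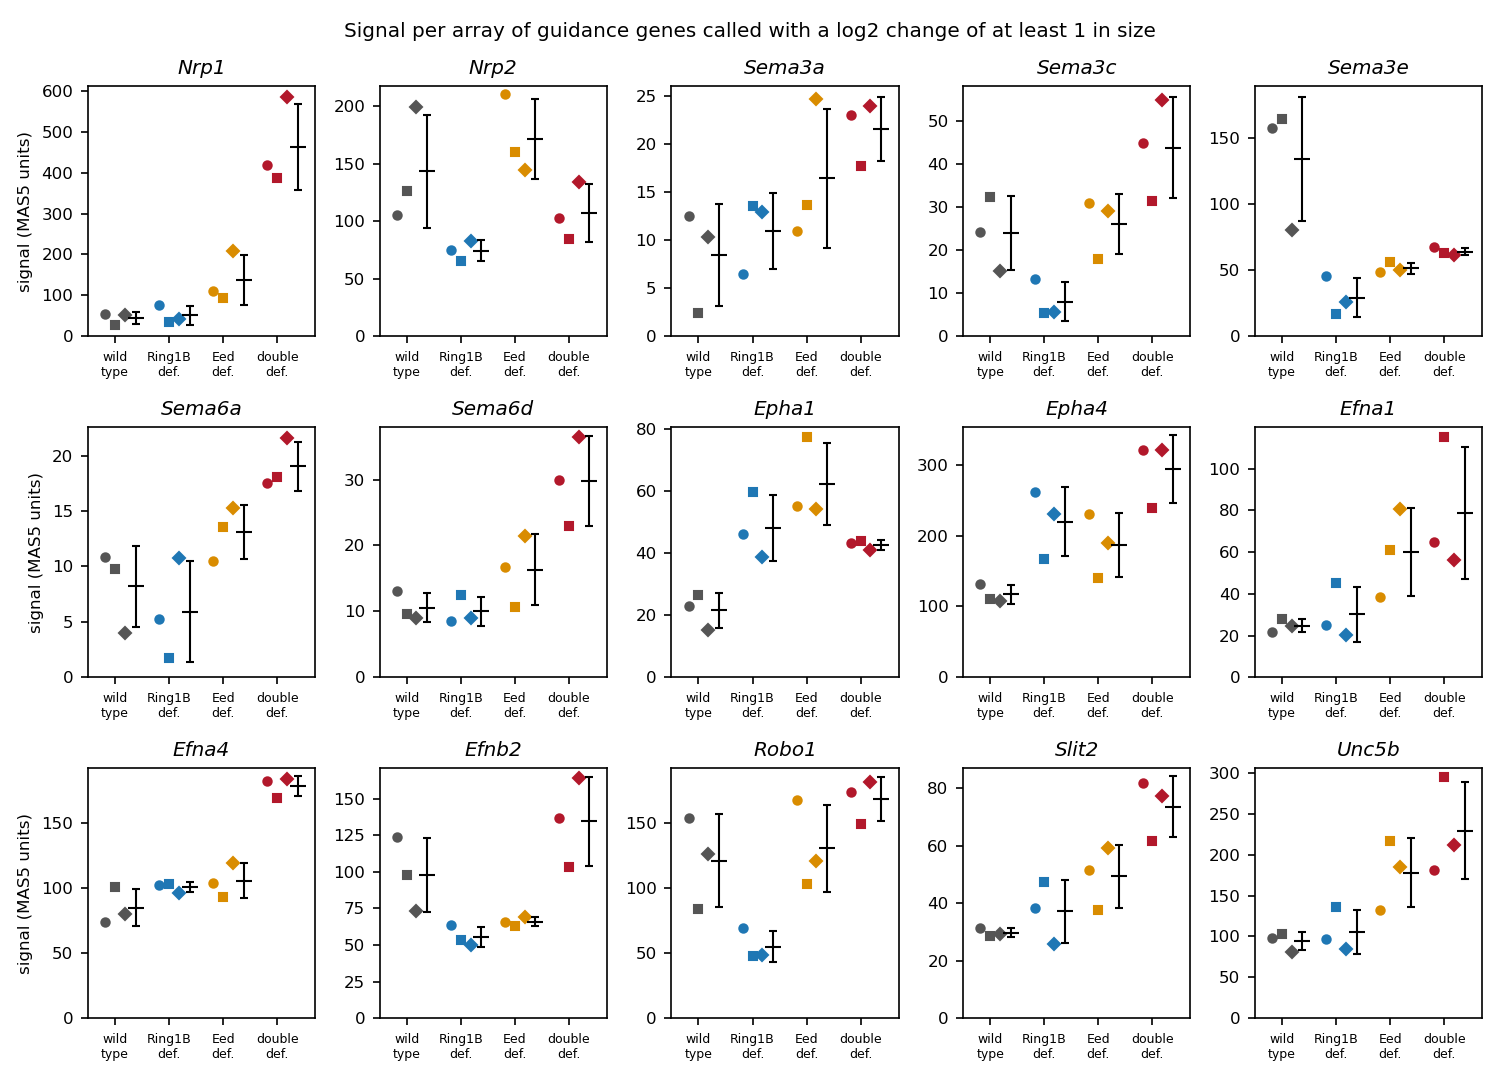
Signal on each array (points, 3 per genotype, in MAS5 units from 0) with mean and SD (bars) for the 15 guidance genes called with a log2 change of at least 1 in size in any comparison. Nrp1 stands highest in double deficient cells (388 to 584), Sema3e is below wild type in every mutant, and Sema3c and Robo1 are lowest in Ring1B deficient cells.

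Of the 7 ephrins, the ligands of Eph receptors, all were tested. Beside 19.5% of all genes higher and 11.4% lower, 5 rose and none fell in double deficient cells (limma, none lower at an unadjusted p under 0.05). The largest of these changes was that of Efna1, with signals of 21.6, 28.0 and 24.8 in the wild type arrays, 25.1, 45.2 and 20.4 in the Ring1B deficient, 38.3, 61.2 and 80.4 in the Eed deficient and 64.8, 115 and 56.4 in the double deficient ones. Eed deficient and double deficient arrays lay above all wild type arrays, and the Ring1B deficient arrays overlapped them. The log2 change was 1.43 (SE 0.31, adjusted p = 0.00361) in double deficient and 1.08 (SE 0.31, adjusted p = 0.0327) in Eed deficient cells, and the latter was not called without Eed deficient replicate 3 (adjusted p = 0.137).

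Efna4 had signals of 74.0, 100.9 and 80.4 in the wild type arrays, 103, 103 and 96.2 in the Ring1B deficient, 104, 93.1 and 119.7 in the Eed deficient and 182, 169 and 184 in the double deficient ones. Its double deficient arrays lay above all others while the rest overlapped, and it rose against wild type (1.04, SE 0.15, adjusted p = 0.000213), Ring1B deficient (0.80, SE 0.15, adjusted p = 0.00337) and Eed deficient cells (0.74, SE 0.15, adjusted p = 0.0283). Efna3 rose from 66.7 ± 9.73 in wild type to 128 ± 11.3 in double deficient cells (SD, n = 3; log2 change 0.90, SE 0.22, adjusted p = 0.00679) and Efna5 from 25.4 ± 7.11 to 50.2 ± 7.60 (0.88, SE 0.21, adjusted p = 0.00669). The membrane-spanning Efnb1 rose from 66.4 ± 7.55 to 108 ± 17.6 in Eed deficient (0.65, SE 0.16, adjusted p = 0.0167) and 123 ± 10.1 in double deficient cells (0.85, SE 0.16, adjusted p = 0.00165). Efna2 was not called in any comparison.

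Efnb2, a marker of arterial endothelium and a reverse-signalling ligand, took another course. Its signal was 124, 97.6 and 73.2 in the wild type arrays, 63.4, 53.4 and 49.99 in the Ring1B deficient, 65.5, 63.3 and 69.2 in the Eed deficient and 137, 103 and 164 in the double deficient ones. Both single mutants lay below every wild type and double deficient array, which overlapped each other. It fell in Ring1B deficient cells (-0.74, SE 0.20, adjusted p = 0.0406), a call lost in 12 of 21 alternatives, changed by -0.51 (SE 0.20, adjusted p = 0.110) in Eed deficient cells, not called, and was higher in double deficient cells than in Ring1B deficient (1.19, SE 0.20, adjusted p = 0.00179) and Eed deficient cells (0.95, SE 0.20, adjusted p = 0.0320). Another Efnb2 probe set changed by 0.19 in Ring1B deficient cells.

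Efna1, Efna3 and Efna4 are 3 consecutive protein-coding genes on mouse chromosome 3, within 66.3 kb (RefSeq GRCm38.p6, 89271730 to 89280951, 89313899 to 89322939 and 89333393 to 89338028, all on the minus strand). All 3 rose in double deficient cells, by 1.43, 0.90 and 1.04, 1 of 3 (Efna1) rose in Eed deficient and 0 of 3 in Ring1B deficient cells, where the changes were 0.18, 0.28 and 0.24 (limma, none at an unadjusted p under 0.05). Of all genes, 19.5%, 10.8% and 4.68% were called higher in double, Eed and Ring1B deficient cells. Sema3d, Sema3a, Sema3e and Sema3c lie in a stretch of 5347 kb on chromosome 5 that holds 22 protein-coding genes, 6 of them tested. There Sema3a rose and Sema3e fell in double deficient cells, and Sema3e and Sema3c fell in Ring1B deficient cells, so the tested neighbours moved in both directions. Both stretches were singled out after the values were seen.

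Since Polycomb complexes sit at promoters rich in CG dinucleotides, the 250 bases upstream of the annotated start of these genes are shown, in the direction of transcription and with each CG in capitals (RefSeq, GRCm38.p6; the outermost start where a gene has several). The neighbouring ephrins come first, all 3 of which rose in double deficient cells: 
Efna1, chr3:89280952-89281201: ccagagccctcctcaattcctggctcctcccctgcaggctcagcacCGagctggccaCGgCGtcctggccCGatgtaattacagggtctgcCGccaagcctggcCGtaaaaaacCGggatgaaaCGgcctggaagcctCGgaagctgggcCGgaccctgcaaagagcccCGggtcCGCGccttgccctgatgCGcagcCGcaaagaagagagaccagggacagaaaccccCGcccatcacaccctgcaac
Efna3, chr3:89322940-89323189: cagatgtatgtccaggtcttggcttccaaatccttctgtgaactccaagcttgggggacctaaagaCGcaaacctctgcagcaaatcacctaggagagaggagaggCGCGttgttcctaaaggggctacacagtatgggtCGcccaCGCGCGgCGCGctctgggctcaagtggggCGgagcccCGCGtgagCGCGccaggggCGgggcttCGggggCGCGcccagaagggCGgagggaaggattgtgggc
Efna4, chr3:89338029-89338278: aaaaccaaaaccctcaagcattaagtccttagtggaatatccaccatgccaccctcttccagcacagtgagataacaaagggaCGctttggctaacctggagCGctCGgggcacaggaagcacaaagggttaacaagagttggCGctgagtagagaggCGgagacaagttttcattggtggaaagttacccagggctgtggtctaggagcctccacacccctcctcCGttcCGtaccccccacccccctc
These lie on the minus strand and hold 16, 19 and 7 CG. Sema3e, lower in all 3 mutants, and Sema3c, which fell in Ring1B deficient cells, are on the plus strand: 
Sema3e, chr5:14025026-14025275: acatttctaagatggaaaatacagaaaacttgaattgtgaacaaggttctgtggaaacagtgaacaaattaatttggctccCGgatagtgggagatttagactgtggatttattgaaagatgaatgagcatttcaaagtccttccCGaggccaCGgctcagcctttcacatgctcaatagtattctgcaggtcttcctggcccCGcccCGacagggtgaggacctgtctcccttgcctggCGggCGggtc
Sema3c, chr5:17574566-17574815: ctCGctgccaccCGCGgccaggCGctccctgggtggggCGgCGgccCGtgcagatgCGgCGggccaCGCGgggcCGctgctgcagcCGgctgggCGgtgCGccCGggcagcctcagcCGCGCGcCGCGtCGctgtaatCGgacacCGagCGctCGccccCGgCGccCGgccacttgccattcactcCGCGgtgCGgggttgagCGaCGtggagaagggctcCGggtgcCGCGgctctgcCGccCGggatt
The Sema3e window holds 7 CG in 48.0% G and C, and that of Sema3c 39 CG in 78.4%.

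RefSeq windows were matched for 36 of the 42 members, 43 windows in all. Their median was 16 CG and 64.8% G and C, against 6 CG and 52.4% in 32851 windows of the table. By a rule of over 50% G and C with an observed to expected CG ratio over 0.6 in the 250 bases, 23 member windows (53.5%) were CG-rich, against 30.8% of all windows. The members higher in double deficient cells had a median of 16 CG over 18 windows, 9 of them CG-rich, and the members called in no mutant 14.5 CG over 10 windows, 5 of them CG-rich. The letters GATAA on either strand (GATAA or TTATC), the core read by the Gata factors of endoderm, stood in 8 member windows (18.6%), 4 of the 18 windows of members higher in double deficient cells (22.2%) and 22.6% of all windows. Among the printed windows it stands in that of Efna4. These are descriptions of letters, with no test.

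Robo1, a Slit receptor, was the only tested Robo gene. Its signal was 154, 83.6 and 126 in the wild type arrays, 69.0, 47.7 and 48.6 in the Ring1B deficient, 168, 103 and 121 in the Eed deficient and 174, 149 and 182 in the double deficient ones. The Ring1B deficient arrays lay below all others, which overlapped. It fell in Ring1B deficient cells (-1.05, SE 0.23, adjusted p = 0.0145), was higher in Eed deficient (1.16, SE 0.23, adjusted p = 0.0140) and double deficient cells (1.54, SE 0.23, adjusted p = 0.000806) than in these, and against wild type changed by 0.11 (SE 0.23, adjusted p = 0.790) and 0.49 (SE 0.23, adjusted p = 0.123), not called. Its second probe set changed by -0.15 in Ring1B deficient cells.

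Slit2, a repellent ligand of Robo1, rose instead. Its signal was 31.4, 28.6 and 29.3 in the wild type arrays, 38.2, 47.4 and 25.9 in the Ring1B deficient, 51.4, 37.6 and 59.2 in the Eed deficient and 81.8, 61.7 and 77.1 in the double deficient ones. The double deficient arrays lay above all others, and the log2 change was 1.17 (SE 0.22, adjusted p = 0.00123) there and 0.63 (SE 0.22, adjusted p = 0.0663) in Eed deficient cells, not called. With the replicate number as a block the change in Eed deficient cells was called (limma, adjusted p = 0.0380). Of the netrin receptors, Unc5b had signals of 98.6, 103 and 81.5 in the wild type arrays, 96.5, 136 and 84.7 in the Ring1B deficient, 133, 217 and 184 in the Eed deficient and 181, 295 and 212 in the double deficient ones. It rose in Eed deficient (0.86, SE 0.23, adjusted p = 0.0215) and double deficient cells (1.21, SE 0.23, adjusted p = 0.00137), with no overlap with wild type in either.

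Dcc, the attractive netrin receptor, differed between double deficient and Ring1B deficient cells alone (36.0 ± 8.41 against 21.1 ± 3.46, SD, n = 3; log2 change 0.64, SE 0.21, adjusted p = 0.0499), and kept that call in 5 of 21 alternatives. The ligand Ntn1 and the receptor Unc5c were called in none. The 13 members called in no comparison had array signals of 4.12 to 293, a range that takes in bright probe sets.

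In Ring1B deficient cells the calls were thus 3 Eph receptors higher (Epha1, Epha4 and Ephb3) and 5 members lower (Sema3e, Robo1, Sema3c, Nrp2 and Efnb2). The 5 lower calls moved with single arrays: there were 2 without wild type replicate 1 or 2 or double deficient replicate 1, 3 without replicate 3 of wild type or of Eed deficient cells or replicate 1 of Ring1B deficient cells, and 1 without Ring1B deficient replicate 2 or 3. In Eed deficient cells the 6 higher calls (Nrp1, Epha1, Efna1, Unc5b, Ephb3 and Efnb1) were 3 without replicate 3 of either wild type or Eed deficient cells, and the lower calls, 1 with all arrays, were 2 without wild type replicate 3. Endoderm marker sums were higher in all 3 mutants and fibroblast marker sums in Eed deficient and double deficient cells, and their part in these calls, or in those of double deficient cells, was not tested.

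Against Ring1B deficient cells, 16 of 35 members were higher in double deficient cells and none was lower (limma, none lower at an unadjusted p under 0.05; 12.7% and 5.98% of all genes), with a median of 0.64 beside 0.11 over all genes. These 16 were Nrp1, Sema3c, Robo1, Efna1, Sema6a, Sema6d, Efnb2, Sema3e, Unc5b, Slit2, Plxnc1, Efna4, Plxna2, Efna5, Dcc and Efnb1, with log2 changes from 3.11 for Nrp1 to 0.57 for Efnb1. Without Sema6a and Plxnc1, 14 of 33 remained. Sema6d, among these 14, also needed Eed deficient or double deficient arrays to pass the filter. None of the 3 Eph receptors that rose in Ring1B deficient cells was among the 16. The count was 10 after quantile normalization and 11 after median centring, and 9, 10 and 9 without Ring1B deficient replicate 3 or double deficient replicates 1 and 3. Over all genes the 1781 higher and 836 lower calls became 1301 and 955 after quantile normalization and 963 and 2225 after median centring.

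Against Eed deficient cells, from which the double deficient line was derived, 3 of 35 members were higher and none lower (limma, 10 higher and 2 lower at an unadjusted p under 0.05; 1.07% and 0.822% of all genes). They were Nrp1, Efna4 and Efnb2. The median was 0.36, beside 0.057 over all genes. No member was called without Eed deficient replicate 1 or 2 or double deficient replicate 1 or 3. Over all genes the 150 higher and 115 lower calls became 149 and 189 after quantile normalization and 89 and 323 after median centring.

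Eed deficient cells exceeded Ring1B deficient cells in 4 of 35 members, with none lower (limma, 11 higher and none lower at an unadjusted p under 0.05; 3.37% and 1.11% of all genes). The members were Nrp1 (1.34, SE 0.33, adjusted p = 0.0392; lost in 12 of 21 alternatives), Nrp2 (1.14, SE 0.23, adjusted p = 0.0162), Sema3c and Robo1. The count was 1 without Ring1B deficient replicate 3 or Eed deficient replicate 1, and 2 without Ring1B deficient replicate 2, Eed deficient replicate 3 or double deficient replicate 1. These 3 comparisons between mutants share arrays with each other.

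Loss of Ring1B was measured in 2 backgrounds, wild type and Eed deficient, and the difference between both changes (double minus Eed deficient, less Ring1B deficient minus wild type) was tested as an interaction. It was called higher for 3 of 35 members and lower for 1 (0.708% and 1.19% of all genes), with a median of 0.32 beside 0.062 over all genes. Sema3e changed by -2.04 with Ring1B loss in wild type and by 0.29 in Eed deficient cells (difference 2.33, SE 0.41, adjusted p = 0.0115). Efnb2 changed by -0.74 and 0.95 (difference 1.70, SE 0.29, adjusted p = 0.0101), and Robo1 by -1.05 and 0.38 (difference 1.43, SE 0.33, adjusted p = 0.0425).

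Epha1 went the other way, with 1.01 in wild type and -0.48 in Eed deficient cells (difference -1.49, SE 0.30, adjusted p = 0.0215), while its second probe set gave 0.23, not called. Sema3c (1.81, SE 0.43, adjusted p = 0.0504) and Nrp1 (1.61, SE 0.47, adjusted p = 0.102) were not called. Sema3c was called after quantile normalization (1.71, adjusted p = 0.0473) and median centring (1.64, adjusted p = 0.0435), and Nrp1 without Eed deficient replicate 3 (1.94, adjusted p = 0.0464). With the replicate number as a block both were called (limma, adjusted p = 0.0118 for Sema3c and 0.00592 for Nrp1). The lower call was absent without Ring1B deficient replicate 2, Eed deficient replicate 2 or double deficient replicates 1 or 3, and there were 2 without double deficient replicate 2. Of 20 alternatives, Sema3e and Efnb2 kept the call in 19 each, Epha1 in 14 and Robo1 in 8. Over all genes, 99 higher and 167 lower calls became 91 and 211 after quantile normalization and 62 and 279 after median centring. Endoderm markers also differed by background: 9 of 12 had a lower interaction (1.19% of all genes).

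**Figure D4:**
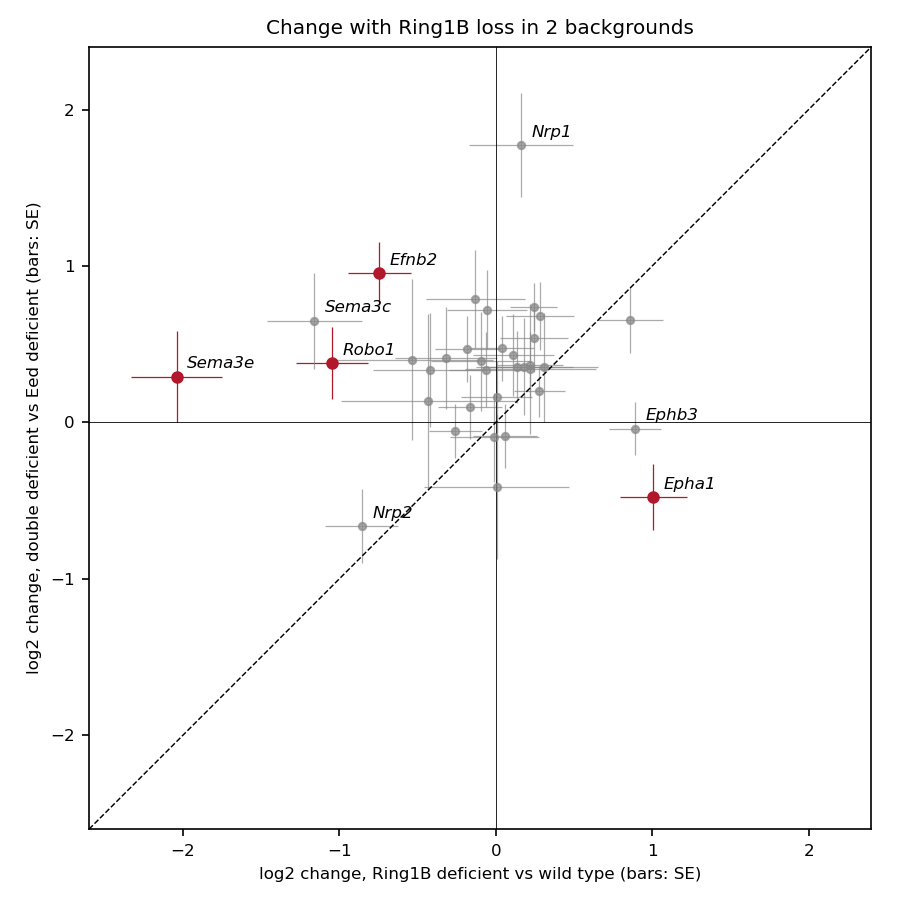
Log2 change with Ring1B loss in wild type cells (horizontal) and in Eed deficient cells (vertical) for the 35 tested guidance genes, with SE bars and the line of equal change dashed. The 4 called interactions are red: Sema3e, Efnb2 and Robo1 lie above the line, and Epha1 (1.01 and -0.48) lies below it.

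Several called members had further probe sets. In double deficient cells 19 other kept probe sets of 10 called members were measured, of which 17 had the same sign and 10 were called the same way, with none called the opposite way. The 2 of opposite sign belonged to Sema6d and Plxna2. In Ring1B deficient cells 13 of 14 such probe sets had the same sign and 4 were called, and in Eed deficient cells 11 of 11 and 5. These calls adjust over 25249 probe sets.

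Of other ligands and receptors of the same families, 24 were tested of 34 listed. In double deficient cells 6 (25%, against 19.5% of all genes) rose and none fell (limma, 8 and 1 at an unadjusted p under 0.05). In Eed deficient cells 3 rose (10.8% of all genes). None was called in Ring1B deficient cells (limma, 2 higher and 2 lower at an unadjusted p under 0.05), where 4.68% of all genes were higher and 2.5% lower. The median of the 24 was 0.24 in double deficient cells. Sema7a, the lipid-anchored ligand of Plxnc1, rose in Eed deficient (1.20, adjusted p = 0.00674) and double deficient cells (1.28, adjusted p = 0.00214), and Sema4f rose in both (1.40, adjusted p = 0.000372, and 0.80, adjusted p = 0.00767). Ntn4, a netrin of basement membranes, rose in double deficient cells (1.57, adjusted p = 0.00125).

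Of 38 listed cytoplasmic effectors, which link these receptors to the cytoskeleton, 34 were tested. In double deficient cells 8 rose and 1 fell (19.5% and 11.4% of all genes), and in Eed deficient cells 3 and 1 (10.8% and 4.56%). In Ring1B deficient cells 0 rose and 1 fell (4.68% and 2.5%). Their medians were 0.30, 0.18 and -0.11 in that order, beside 0.10, 0.034 and -0.014 over all genes. Srgap1, which binds the cytoplasmic part of Robo receptors, rose in Eed deficient (1.00, adjusted p = 0.0256) and double deficient cells (1.97, adjusted p = 0.000152), and Mical2, of the plexin-linked Mical family, by 1.24 (adjusted p = 0.00228) and 1.49 (adjusted p = 0.000284). Enah, an actin regulator, fell in both (-0.69, adjusted p = 0.0118, and -0.77, adjusted p = 0.00327). Dpysl2, a collapsin response mediator protein, fell in Ring1B deficient cells (-1.26, adjusted p = 0.00102), where its signal was 150.2 ± 34.4 against 366 ± 82.9 (SD, n = 3) in wild type, with 447 ± 41.0 in Eed deficient and 467 ± 39.9 in the double deficient cells. Its interaction was called (1.32, adjusted p = 0.0212), as was that of its relative Dpysl3 (1.37, adjusted p = 0.0199).

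Of markers of neurons, the cells in which these genes are best known, 10 were tested. In double deficient cells 1 was higher and 2 lower (limma, 19.5% and 11.4% of all genes). The counts were 0 and 1 in Eed deficient (10.8% and 4.56%) and 0 and 2 in Ring1B deficient cells (4.68% and 2.5%). The summed signal of the list was 2779 to 3112 in wild type and 1626 to 2186 in double deficient arrays. Of 10 endothelial markers, of a cell type that expresses Nrp1 and Efnb2, 7 were tested. In double deficient cells 4 were higher and 1 lower (19.5% and 11.4% of all genes). The counts were 3 and 1 in Eed deficient (10.8% and 4.56%) and 2 and 1 in Ring1B deficient cells (4.68% and 2.5%). The summed signal of the 10 was 300 to 337 in wild type and 553 to 631 in double deficient arrays. Of 9 tested trophoblast markers, 4, 7 and 7 were higher in Ring1B, Eed and double deficient cells (4.68%, 10.8% and 19.5% of all genes). The part of such cells in the members' signals was not tested.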

How the data were processed

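RNA of the 12 samples was measured on Affymetrix mouse arrays. The authors deposited MAS5 signals, a linear intensity for each of 45101 probe sets, scaled to a common trimmed mean; MAS5 is named per the submitters' processing notes, and no version or settings appear in the labels. The deposited scaling was kept, since array medians differed by 1.47 times, under a limit of 1.5. From the authors' intensities, log2(signal + 5) was computed. Probe sets were kept where 3 or more of 12 arrays exceeded the array's own 40th percentile (12.1 to 19.1), taken without 64 control probe sets. Symbols came from the platform annotation: 34945 probe sets had 1 symbol, 932 several and 9160 none. Of a gene's kept probe sets, the brightest by mean log2 entered the test (13984 genes).

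Genotypes were compared with limma 3.58.1 (R 4.3.3; lmFit, eBayes with an intensity trend, 1 mean per genotype over 12 arrays), and p-values were adjusted by Benjamini-Hochberg at 0.05; the procedure was tested on simulated data. Per-array values are given for members called with a log2 change of at least 1 in size. Alternatives were other scalings, added values, filters, probe set rules and sample sets. Members and gene lists were chosen with earlier results of these data known. Promoter windows were RefSeq's (GRCm38.p6). The number of arrays limits the precision.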

Additional observations from a re-analysis of the deposited data

Results flagged for a closer look

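For 4 members the change with Ring1B loss differed between the wild type and the Eed deficient background, by a test of the difference itself (limma interaction, adjusted over 13984 genes). The difference was 2.33 on the log2 scale for Sema3e (SE 0.41, adjusted p = 0.0115), 1.70 for Efnb2 (SE 0.29, adjusted p = 0.0101) and 1.43 for Robo1 (SE 0.33, adjusted p = 0.0425). For Epha1 it was -1.49 (SE 0.30, adjusted p = 0.0215). Sema3e, Efnb2 and Robo1 fell in Ring1B deficient cells. Between Eed and double deficient cells Efnb2 rose by 0.95, while Sema3e (0.29) and Robo1 (0.38) were not called. Epha1 rose with Ring1B loss in wild type cells and changed by -0.48, not called, in Eed deficient cells. Of 20 alternatives, Sema3e and Efnb2 kept the call in 19 each, Epha1 in 14 and Robo1 in 8. Among other kept probe sets, 1 of 1 for Epha1 and 1 of 2 for Efnb2 had an interaction of opposite sign. The counts were 0 of 3 for Sema3e and 0 of 1 for Robo1.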

How the results depend on the processing

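Of 59 calls of members, 57 held with 1 and 58 with 20 added to the signal, 49 with no filter, 47 with quantile normalization, 47 with median centring, 42 with the mean over a gene's probe sets, and 41 without the 4 arrays numbered 2, an alternative chosen after seeing the data. With only the genotypes compared, 47 of 55 held, and the interaction, which needs all 4 genotypes, had no such fit. Sema6d reversed without double deficient replicate 1, because another probe set was then the brightest: leaving out 1 array gave -0.59 to 1.30 for double deficient against wild type and -0.14 to 1.35 for double against Ring1B deficient cells.

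Member counts that moved were these. Ring1B deficient against wild type: 1 higher and 1 lower with the mean over probe sets, and 2 lower with no filter, only the genotypes compared or without the arrays numbered 2. Double deficient against wild type: 2 lower with median centring and 0 without the arrays numbered 2. Double against Eed deficient: 1 higher without the arrays numbered 2. Double against Ring1B deficient: 10 higher with quantile normalization. Eed against Ring1B deficient: 2 higher with the mean over probe sets or only the genotypes compared. Interaction: 1 higher with the mean over probe sets, 2 lower with quantile normalization or median centring, and 0 lower without the arrays numbered 2.

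Each array's deviations from its genotype mean were correlated across genes between genotypes. Over the 18 same-numbered pairs the correlation was -0.048 to 0.61 (median 0.28, against -0.19 for pairs of other numbers). It was over 0.1 in 13 of 18, not in all, so the numbers were not taken to pair the samples. All 4 arrays numbered 1 and all 4 numbered 2, but 1 of 4 numbered 3, correlated best with their own number. With the replicate number as a block, all 59 calls held and 21 were gained: double against Eed deficient had 5 higher and 1 lower, Eed against Ring1B deficient 8 higher, and the interaction 5 higher and 2 lower, with Nrp1 (adjusted p = 0.00592), Sema3c (0.0118) and Ephb3 (0.0225) gained.

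Leaving out 1 array at a time gave, for double deficient against wild type, 13 to 16 higher and 0 to 1 lower, for Eed deficient 3 to 7 and 1 to 2, for Ring1B deficient 2 to 3 and 1 to 5, for double against Ring1B deficient 9 to 16 higher, for double against Eed deficient 0 to 3, for Eed against Ring1B deficient 1 to 5, and for the interaction 2 to 4 and 0 to 2. No member was called lower between any pair of mutants in these 12 fits.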
